A study of Mus musculus with 2 samples.

Results

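The neurons described here are the Nefh-high neurons of the mouse trigeminal ganglion (TG) that carry little Calca and almost no Trpm8 RNA. They were chosen by their own counts. Cells with at least 150 genes and at most 25% mitochondrially encoded counts were kept. Neurons were the kept cells with at least 5000 unique molecular identifiers (UMIs, each standing for 1 captured RNA molecule) and at least 10 UMIs of Tubb3, Snap25 and Stmn2 together. Members were the neurons with Nefh at or above 500 counts per 1000000 UMIs of the cell (CPM), Calca under 5000 CPM and at most 2 UMIs of Trpm8. In total 55 of 1204 neurons met this rule, out of 11378 deposited cells, of which 10356 were kept. The control library gave 33 members among 795 neurons (4.15%, 95% Clopper-Pearson interval 2.87 to 5.78%), and the CFA library gave 22 among 409 (5.38%, 3.40 to 8.03%). The 2 intervals overlapped.

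The study compared TG cells of mice with and without orofacial inflammation on a BD Rhapsody whole transcriptome platform. Both groups were male C57BL/6 mice of 5 to 8 weeks, and right TGs were dissociated with papain 7 days after the injection. CFA animals received 20 µL of complete Freund's adjuvant (CFA), diluted in saline, in the right vibrissal pad. The control is described as injected with saline, whereas its label reads untreated. The methods give 6 mice per group, the number of mice in a library is not given, and 1 library was deposited per condition. Therefore the comparison of conditions had no replicate check, the library and the condition cannot be told apart, and no p-value is given. All intervals below are at 95% and cover counting error only. The control library held 48916096 UMIs over 7298 cells and the CFA library 22096268 UMIs over 4080 cells. Cell barcodes shared between the libraries numbered 27, and none of them belonged to a neuron in both.

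Large myelinated A-fibre neurons conduct fast and carry touch, vibration and muscle or jaw position. Their axons are rich in neurofilaments, of which Nefh encodes the heavy chain, and their sodium and potassium channels are gathered at the nodes of Ranvier between myelin segments. Most are low-threshold mechanoreceptors, while some myelinated neurons that also make neuropeptides respond to painful stimuli. Cell size, myelin and conduction were not measured here, so the words large and A-fibre rest on RNA alone.

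The rule itself fixed a high Nefh, and the values at its edges show how sharp the border was. Nefh (chr11:4938754-4948064, GRCm38) ranged from 517 to 3728 CPM with a median of 841 CPM over control members. In CFA members it ranged from 501 to 3868 CPM with a median of 1166 CPM. The nearest control neuron outside stood at 486 CPM and the nearest CFA neuron at 498 CPM, so no gap separated members from the rest. Calca, which encodes calcitonin gene-related peptide, had medians of 237 and 64.5 CPM, and its highest members reached 4443 CPM (control) and 4858 CPM (CFA), against 5016 and 5195 CPM in the nearest neurons outside. Trpm8 (chr1:88277661-88389293), the cold and menthol receptor, had 0 UMIs in 29 control and 18 CFA members. It had 1 UMI in 3 control and 2 CFA members, and 2 UMIs in 1 and 2. This limit is a count of UMIs and so depends on depth. Under 10000 UMIs were 7 control and 4 CFA members, but 0 of the neurons with at least 3 Trpm8 UMIs. Whether shallow Trpm8 neurons stand among the members was not tested. Members in the control library held a median of 43087 UMIs (5242 to 119084) and 7737 genes, and those in the CFA library a median of 18384 UMIs (6305 to 116823) and 5286 genes. Other neurons held medians of 44905.5 and 37246 UMIs, so the CFA members were shallower than their own library's neurons.

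The 6 marker genes of the label were all higher in the members' summed counts than in the other neurons, in both libraries. Because the rule chose these cells on their own RNA, this is a description without a test. Nefh was at 1146 CPM in control members and 210 CPM in other control neurons, and at 1304 against 221 CPM in the CFA library. Sv2b, a synaptic vesicle glycoprotein, was at 220 against 15.1 CPM (control) and 172 against 21.6 CPM (CFA). Cntn1, an axonal adhesion molecule of the paranode, was at 550 against 65.8 CPM and 629 against 82.2 CPM. Thy1, a surface glycoprotein of projection neurons, was at 1460 against 241 CPM and 1313 against 274 CPM. Differences were smaller for Scn4b, a sodium channel beta subunit, with log2 ratios of 1.98 and 2.04, and for Kcna2, a delayed rectifier, with 1.48 and 1.33. However, these 6 genes did not set the members apart from the Trpm8 neurons. Their summed level was 3969 CPM (control) and 4038 CPM (CFA) in members, 4020 and 4326 CPM in neurons with at least 3 Trpm8 UMIs, and 716 and 800 CPM in all other neurons together. In the Nefh-high Calca-high neurons (Calca at or above 5000 CPM), 7 in each library, it was 1938 and 3103 CPM.

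Genes were compared between members and all other neurons of the same library where they had at least 200 UMIs over all neurons. Of 11505 such genes, 422 (3.67%) were at least 2-fold higher in members in both libraries and 512 (4.45%) at least 2-fold lower. The median gene lay at a log2 ratio of -0.01 (control) and -0.03 (CFA). The 25 leading genes, ranked by the smaller of their 2 ratios, had smaller ratios between 3.06 and 7.13. In rank order they were Calb1, Slc17a7, Mgst1, Lgi2, Cbln2, Vsnl1, Aard, S100b, Lgi3, Sparcl1, Maf, Slc35f1, Clrn1, Mdga1, Frrs1l, Pcdh7, Chn2, Hs3st4, Syt3, Car2, Slco5a1, Syne4, Kcna1, Tafa1 and Nrcam. None of them was used by the rule. However, Calb1, Slc17a7, Mgst1, Lgi2, Aard, Clrn1, Mdga1, Chn2, Slco5a1 and Tafa1 reached 200 UMIs only through the members. Their ranks are a description only.

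Of these, 16 had a window before their start site in RefSeq (GRCm38.p6), and Calb1, Cbln2, Aard, Lgi3, Sparcl1, Maf, Car2, Slco5a1 and Kcna1 had none. The 250 bases upstream of the first listed start are shown for the 3 highest ranked genes with a window, because these genes lead the ranking. Each is written 5′ to 3′ on the gene's own strand, and capitals mark the GC box GGGCGG or its reverse CCGCCC. Slc17a7 lies at chr7:45163671-45163920 (plus strand), Mgst1 at chr6:138140277-138140526 (plus strand) and Lgi2 at chr5:52566307-52566556 (minus strand), and the last 2 windows reach into the gene as GENCODE M21 draws it.
Slc17a7: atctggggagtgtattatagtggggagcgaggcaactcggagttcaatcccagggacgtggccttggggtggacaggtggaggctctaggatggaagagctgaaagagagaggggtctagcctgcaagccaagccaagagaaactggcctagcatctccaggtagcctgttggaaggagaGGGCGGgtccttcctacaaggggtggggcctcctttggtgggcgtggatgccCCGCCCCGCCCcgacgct
Mgst1: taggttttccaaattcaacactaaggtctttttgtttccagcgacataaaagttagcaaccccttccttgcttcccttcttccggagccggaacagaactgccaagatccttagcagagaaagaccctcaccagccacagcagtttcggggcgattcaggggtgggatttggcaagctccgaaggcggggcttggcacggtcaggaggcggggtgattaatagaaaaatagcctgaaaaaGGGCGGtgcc
Lgi2: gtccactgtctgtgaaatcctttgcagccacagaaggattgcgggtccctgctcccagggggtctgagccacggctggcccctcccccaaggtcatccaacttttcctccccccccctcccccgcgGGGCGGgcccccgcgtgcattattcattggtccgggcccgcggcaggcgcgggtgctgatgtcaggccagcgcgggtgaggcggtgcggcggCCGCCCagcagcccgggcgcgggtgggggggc
Motifs were searched on both strands of the 250 bases. The GC box occurred in 8 of the 16 windows (50%), those of Slc17a7, Mgst1, Lgi2, Vsnl1, Slc35f1, Mdga1, Hs3st4 and Nrcam, and in 32.9% of 27018 windows of all genes. The Maf recognition core TGCTGAC occurred in 3.72% of all windows, the Runx core TGTGGT in 14.18% and the TATA box TATAAA in 12.97%, each in 0 of the 16. A match describes letters only, and a missing match says no more than that these letters are absent from the window.

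The 2 highest ranked genes were nearly absent from other neurons. Slc17a7 (chr7:45163949-45176142), the vesicular glutamate transporter VGLUT1, was at 117 CPM in control members and 0.269 CPM in other control neurons, and at 130 against 0.997 CPM in the CFA library. Over single control members it had a median of 29.6 and a highest value of 763 CPM, over CFA members 25.7 and 415 CPM, and the lowest was 0 in both. It had a UMI in 19 of 33 and 11 of 22 members, so it was found in a large part of the class. The top cell held 15.5% (control) and 41.9% (CFA) of its UMIs. Calb1 (chr4:15881264-15908064), the calcium buffer calbindin, was at 98.0 against 0.698 CPM (control) and 152 against 0.623 CPM (CFA). Its RNA came from 10 control and 4 CFA members, with a median of 0 CPM in both, and the top cell held 23.1% and 43.1% of its UMIs. Calb1 thus marked a minority of members.

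S100b was found in most members. It encodes a calcium-binding protein that large sensory neurons share with glia. S100b (chr10:76253853-76261159) was at 1361 against 72.5 CPM in the control library, a log2 ratio of 4.23 (4.14 to 4.32), and at 1398 against 98.2 CPM in the CFA library, 3.83 (3.72 to 3.95). Single members had 0 to 3112 CPM with a median of 854 CPM (control) and 0 to 3335 CPM with a median of 1082 CPM (CFA). The 10 members without an S100b UMI were 5 in each library. Mgst1, a glutathione transferase, had log2 ratios of 5.56 and 5.13, Vsnl1, a neuronal calcium sensor, 4.53 and 4.29, and Maf, a leucine zipper transcription factor of touch neurons, 3.94 and 3.76. Lgi2, a secreted synaptic protein, had 4.44 and 5.31, but 73.9% of its CFA UMIs came from 1 member. Mgst1 had a UMI in only 4 CFA members, and 1 of them held 50.8% of its CFA UMIs. The plot of the 25 leading genes shows both libraries side by side.

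**Figure D1:**
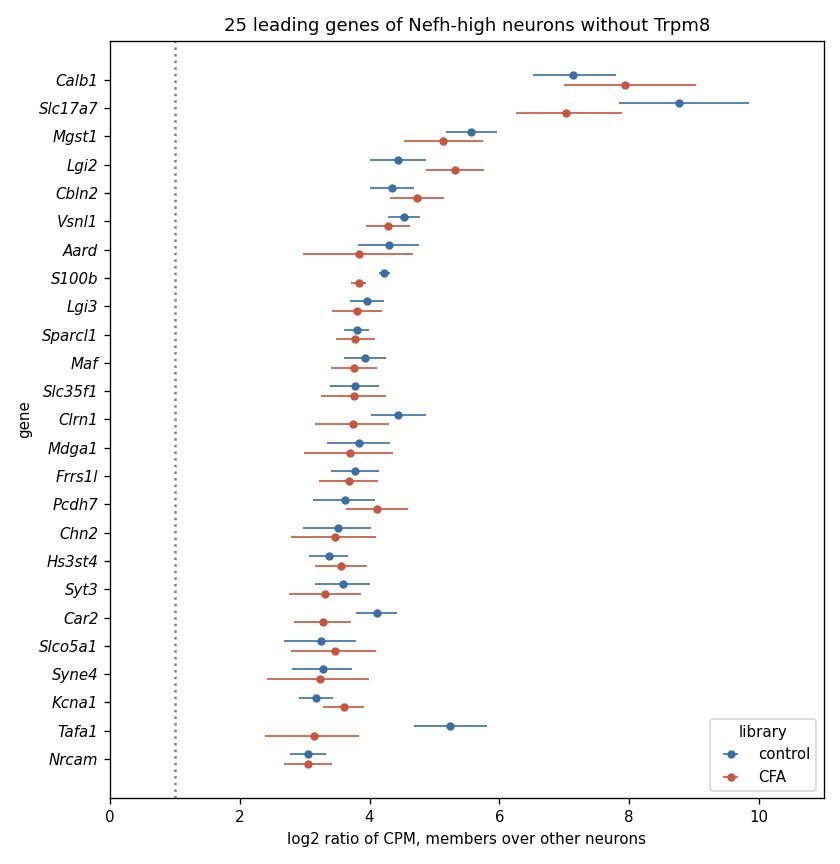
Log2 ratio of summed CPM, members over all other neurons, for the 25 leading genes (control library blue, CFA library red). Lines are exact 95% intervals for counting error and the dotted line is a 2-fold difference; every gene lies right of it in both libraries, and Calb1 and Slc17a7 stand farthest right.

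Trpm8 neurons shared the high Nefh of the members. There were 50 of them among control and 24 among CFA neurons, with 1326 and 1467 CPM of Nefh. A set of sensory genes differed between these classes by a large margin. Piezo2, the principal channel of light touch, was at 267 CPM in control members and 6.16 CPM in control Trpm8 neurons, and at 479 against 1.96 CPM in the CFA library. Ngfr, the low-affinity neurotrophin receptor, was at 571 against 26.9 CPM and 515 against 25.5 CPM. Asic3, an acid-sensing channel of muscle and skin afferents, was at 201 against 14.6 CPM and 128 against 15.7 CPM. Htr3a, a serotonin-gated channel, was at 373 against 54.6 CPM and 243 against 22.6 CPM. S100b, at 1361 and 1398 CPM in members, was at 29.2 and 4.91 CPM in Trpm8 neurons. Slc17a7 had no UMI in any Trpm8 neuron, which makes members at least 101-fold higher (control) and at least 44.1-fold higher (CFA) against a floor of 3 counts over the class. Of the 25 leading genes, 22 were at least 2-fold higher than in Trpm8 neurons in both libraries. The other 3, Lgi3, Sparcl1 and Hs3st4, were shared. The ranking had used a reference that included the Trpm8 neurons, and the share of all genes past this limit is not given here. The count therefore describes these 25 genes only.

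Other genes ran the opposite way. Foxp2, a forkhead transcription factor, was at 122 and 127 CPM in Trpm8 neurons and at 3.02 and 11.2 CPM in members. Pvalb, the calcium buffer parvalbumin that marks proprioceptors of the limbs, was at 172 and 161 CPM in Trpm8 neurons and 19.6 and 2.79 CPM in members. The leak channel genes Kcnk2 and Kcnk9 were also lower in members, Kcnk2 at 41.5 and 46.0 CPM against 255 and 272 CPM, and Kcnk9 at 3.02 and 16.7 CPM against 75.0 and 68.7 CPM. Asic1 was at 80.7 and 177 CPM against 336 and 343 CPM. The calcium-binding S100a4 was at 30.2 and 26.5 CPM against 278 and 416 CPM. High Nefh therefore covered sets of neurons with unlike channel genes in these libraries.

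Depth differed between cells, so detection was also compared after drawing 5000 UMIs from each neuron. S100b then had a UMI in 80.0% of the 55 members (67.0 to 89.6%) and 6.76% of the 74 Trpm8 neurons (2.23 to 15.1%). Without thinning these shares were 81.8% and 39.2%. Piezo2 was found in 56.4% of members and 1.35% of Trpm8 neurons, Maf in 34.5% and 0% (up to 4.86%), and Slc17a7 in 20.0% and 0% (up to 4.86%). Trpv1, the capsaicin receptor, was found in 10.9% of members, 32.4% of Trpm8 neurons and 66.6% of the remaining Nefh-low neurons. In Tafa4 neurons the thinned shares were 4% for S100b and 88.8% for Piezo2, and in the remaining Nefh-low neurons 21.2% and 30.9%. The part of free RNA in these shares was not tested.

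The remaining classes are placed in the plot of levels in 5 classes. Tafa4 neurons (80 and 45 cells, Tafa4 at or above 100 CPM with low Nefh) carry a marker of unmyelinated touch neurons. They held more Piezo2 than members, 661 and 964 CPM, and Ntrk3 at 194 and 210 CPM, near the members' 234 and 262 CPM. Members exceeded them in Nefh, S100b, Slc17a7 and Kcna1. Nefh-high Calca-high neurons numbered 7 in each library, and held S100b at 550 and 1136 CPM and Slc17a7 at 13.7 and 23.9 CPM.

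**Figure D2:**
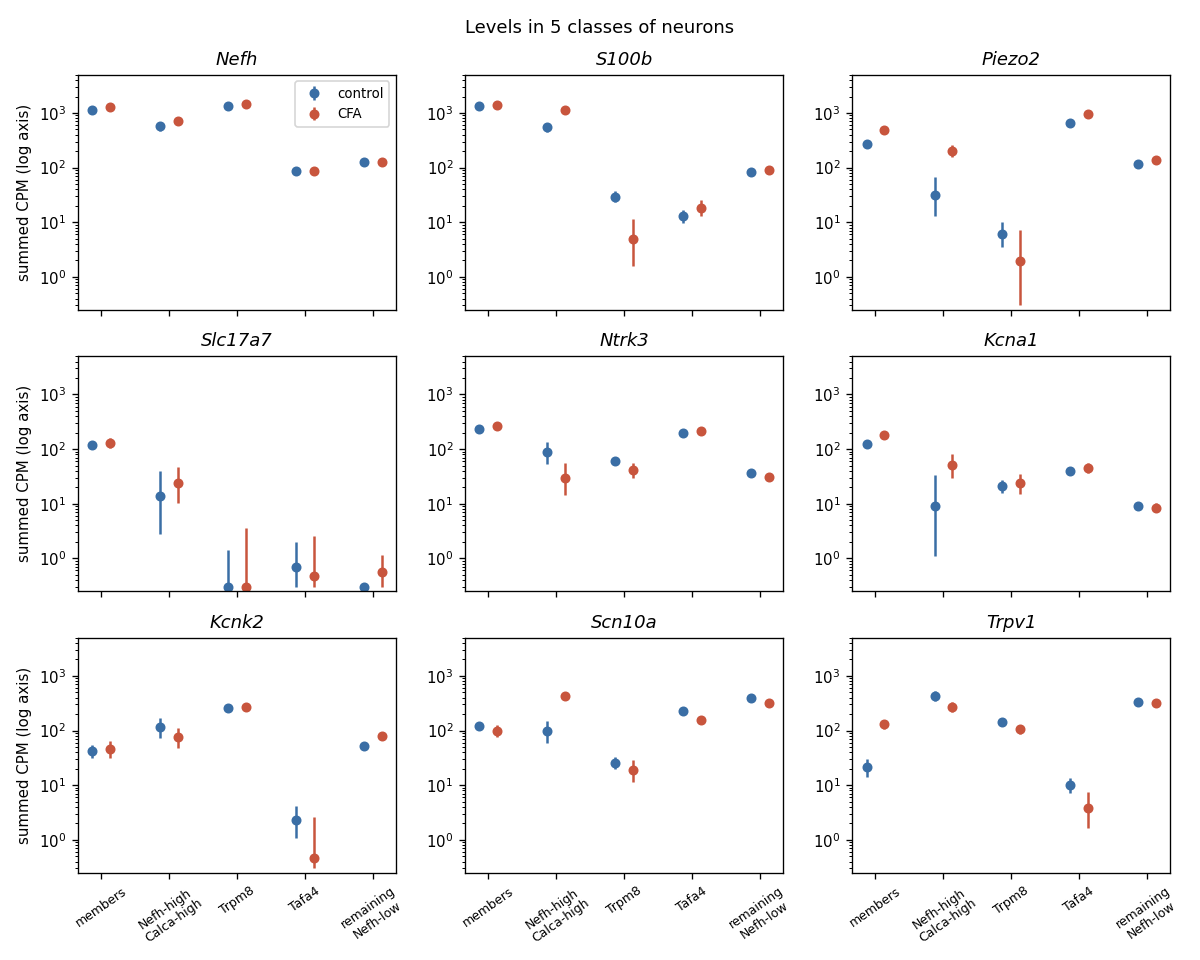
Summed CPM (log axis) of 9 genes in 5 classes of neurons, control library blue and CFA library red, with exact 95% Poisson intervals. Values under 0.3 CPM, zeros included, are drawn at 0.3; S100b, Slc17a7 and Kcna1 are highest in members in both libraries, Kcnk2 in Trpm8 neurons and Piezo2 in Tafa4 neurons.

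Channel genes known from fast-firing neurons were among those higher in members. Of 8 sodium channel alpha subunits measured, 3 were at least 2-fold higher in both libraries, among them Scn1a and Scn8a, and 2 lower, Scn10a and Scn11a, where 3.67% and 4.45% of all genes passed these limits. Scn1a was at 121 against 13.4 CPM in other control neurons and 107 against 16.8 CPM in the CFA library. Scn8a, the principal channel of mature nodes, was at 163 against 30.0 CPM and 230 against 36.6 CPM. Scn10a and Scn11a, which encode the tetrodotoxin-resistant channels of nociceptors, had log2 ratios of -1.52 and -3.14 (control) and -1.48 and -2.74 (CFA). Scn9a, found in most sensory neurons, differed little, at 0.16 and 0.35.

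Potassium channels divided in the same manner. Of 21 voltage-gated members measured, 7 were at least 2-fold higher and 2 lower (3.67% and 4.45% of all genes), with Kcna1, Kcna2, Kcnq3, Kcns1 and Kcnh2 among the first group and Kcnd3 and Kcng2 in the second. Kcna1 (chr6:126640397-126646384), which pairs with Kcna2 beside the node, was at 121 against 13.5 CPM (control) and 184 against 15.1 CPM (CFA). Kcnq3, a channel of the M-current, had ratios of 1.84 (control) and 2.45 (CFA). Kcns1, a silent subunit, was at 37.7 and 55.8 CPM in members, 1.54 CPM and 0 in Trpm8 neurons and 27.1 and 26.3 CPM in Tafa4 neurons. Kcnd3, an A-type channel, had ratios of -2.44 and -1.95. Of 8 auxiliary subunits, 3 were lower and none was higher. These were Kcnip2, Kcnip4 and Dpp10, all of which act with A-type channels. Hcn2, a pacemaker channel, was higher, with ratios of 1.67 and 1.66.

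Genes of nodes and axonal junctions were higher as a group in members than in all other neurons together. Of 15 measured, 10 were at least 2-fold higher in both libraries and none lower (3.67% and 4.45% of all genes), with medians of 1.39 (control) and 1.93 (CFA) beside -0.01 and -0.03 over all genes. Among these 10, Lgi2 had only 106 (control) and 67 (CFA) UMIs in other neurons. Lgi2 thus met the minimum of UMIs for the comparison only through the members. Cntn1 and Thy1, also among the 10, are markers of the label, and Lgi3 was shared with the Trpm8 neurons. After thinning, Cntn1 had a UMI in 78.2% of members and 70.3% of Trpm8 neurons. The list is not set against Trpm8 neurons alone here. Cntnap1, the partner of Cntn1 at the paranode, was at 213 against 30.3 CPM and 193 against 32.5 CPM. Nfasc, which anchors nodes, was at 133 against 45.2 CPM and 205 against 48.5 CPM, and Nrcam at 103 against 12.3 CPM and 121 against 14.6 CPM. Sptbn4, the nodal spectrin, had ratios of 1.15 and 1.75. Cntnap2, Adam23, Lgi2, Lgi3, Cntn1 and Thy1 made up the rest. Ank3, the ankyrin that these proteins bind, was at 153 against 278 CPM and 251 against 312 CPM, on the lower side. Of 6 intermediate filament genes, Nefh was high by the rule. Of the others, Nefm and Nefl were at least 2-fold higher and Ina and Vim lower, beside the same shares of all genes, and Prph, the filament of small neurons, had ratios of -0.66 and -0.67. Sptbn1 and Epb41l3, which other membranes also use, did not pass 2-fold.

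Synaptic genes differed by isoform. Of 19 vesicle genes measured, 6 were at least 2-fold higher and 4 lower, against 3.67% and 4.45% of all genes. The list's median ratio was 0.15 (control) and 0.07 (CFA). Vamp1, the vesicle SNARE of fast motor and sensory synapses, was at 651 against 150 CPM and 597 against 137 CPM, while Vamp2 had ratios of -0.61 and -0.53. Syt2, a fast calcium sensor, was at 180 against 34.9 CPM and 169 against 36.0 CPM. The lower genes included Syt4, Syt7 and Syt9, other synaptotagmins, with CFA ratios of -1.60, -2.07 and -1.71. Slc17a6 (VGLUT2), the transporter of most sensory neurons, was level with the others, at 0.15 and 0.07, in contrast to Slc17a7. Cplx1 had ratios of 1.48 and 1.31. Gabra2 and Gabra5 were higher among 8 receptors for GABA. Of 11 glutamate receptors, Grik2 and Grm8 were higher and Gria1 and Grik1 lower.

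Receptors and transcription factors gave the members a mixed profile. Of 8 growth factor receptors measured, Ntrk2 and Ntrk3 were at least 2-fold higher, and Gfra2 and Gfra3 lower, beside 3.67% and 4.45% of all genes. Ntrk3 (chr7:78175959-78738012), the receptor of neurotrophin-3, was at 234 against 56.5 CPM (control) and 262 against 54.9 CPM (CFA), with 54.8% of the CFA UMIs in 1 member. Ntrk2, the receptor of brain-derived neurotrophic factor, was at 69.4 against 10.2 CPM and 68.4 against 13.3 CPM, with 46.7% and 53.1% in 1 member. Of 16 transcription factors, Maf, Meis2 and Cux2 were higher, and Runx1 and Etv1 lower, beside the same shares of all genes. Runx1 specifies unmyelinated neurons. Runx3, a factor of Ntrk3 neurons, did not reach the limit of 200 UMIs. It had at least 2 UMIs in 13 of 55 members and in none of 74 Trpm8 or 125 Tafa4 neurons. Mechanosensory genes counted 11, of which Tmem63a alone passed 2-fold in both libraries, on the lower side. Piezo2 had ratios of 0.64 and 0.99 and Asic3 of 1.63 and 0.96.

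Nociceptor genes were lower as a group. Of 22 measured, 18 were at least 2-fold lower in both libraries and none higher, against 4.45% and 3.67% of all genes, with medians of -2.32 (control) and -1.77 (CFA). The 18 include Calca, which is part of the rule. Trpv1 was at 21.1 against 281 CPM in the control and 130 against 267 CPM in the CFA library, where 57.0% of the UMIs came from 1 member. Tac1, the substance P precursor, was at 1275 against 3246 CPM and 1152 against 2836 CPM. The 15 leading lower genes began with Mrgprd, a receptor of nonpeptidergic neurons, at 6.03 against 162 CPM in the control and 0 UMIs against 121 CPM in the CFA library. Gal and Cd44 followed, with Gal at 8.30 against 192 CPM and 5.58 against 179 CPM. Cd24a, a surface glycoprotein, was at 204 against 2166 CPM and 174 against 1814 CPM.

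Single members differed among themselves, and the receptors of growth factors were spread over different cells. Cells with at least 2 UMIs of a gene were counted, and these counts depend on depth. Ret was found in 37 of 55 members, Ntrk3 in 31 and Ntrk2 in 16. Piezo2 was found in 39, Maf in 29, Htr3a in 26, Slc17a7 in 22 and Calb1 in 12. All 12 Calb1 members also had Slc17a7, 11 had Maf and 9 had Ntrk3, while none had Calca at or above 1000 CPM. Of the 16 Ntrk2 members, 11 had Slc17a7. Of the 31 Ntrk3 members, 27 had Piezo2 and 16 had P2ry1.

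A second pattern was that of Calca. It reached 1000 CPM in 13 members, 6 of them control and 7 CFA cells. Of these, 9 had Htr3a, 8 had Scn10a, 6 had Trpv1, 3 had Ntrk3 and 1 had Slc17a7. Of the 42 members with less Calca, 17 had Htr3a, 11 had Scn10a, 2 had Trpv1, 28 had Ntrk3 and 21 had Slc17a7. The limit of 5000 CPM for Calca thus admitted cells with unlike levels of nociceptor genes. Tac1 did not follow Calca in every cell. One control member with 237 CPM of Calca had 6491 CPM of Tac1, and 1 CFA member with 53.0 CPM of Calca had none. Pvalb was found in 4 members, and 1 of them, a control cell, had 1414 CPM of it. Spp1, which encodes osteopontin, was found in 10 members and in none of the 74 Trpm8 or 125 Tafa4 neurons. Sst, a marker of itch neurons, was found in 3 members, all in the control library. No doublet caller was run, and these cells were kept.

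**Figure D3:**
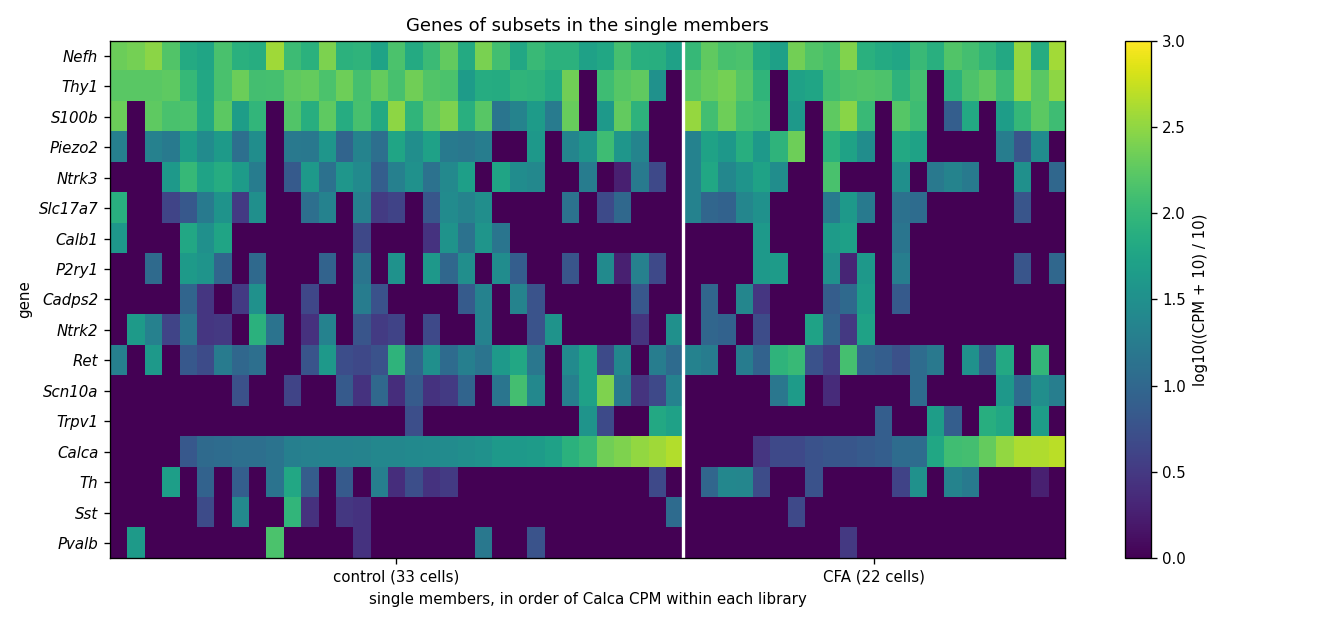
Level of 17 genes in each of the 55 members (columns), 33 control cells left and 22 CFA cells right of the white line, in order of rising Calca within a library; colour is log10((CPM + 10)/10). Calb1 and Slc17a7 lie mostly among cells with little Calca, and Trpv1 mostly among cells with much Calca.

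CFA members were next compared with control members, over the 2203 genes with at least 200 UMIs in members. Of these, 150 (6.81%) lay at or above a log2 ratio of 0.5 and 137 (6.22%) at or below -0.5, and the median was -0.00. In the other neurons, with far more cells, 30 and 12 of the same genes passed these limits. The counts in members depended on the processing, with 356 and 331 of these genes after thinning every cell to 5000 UMIs, with 352 and 346 of 4148 genes at a minimum of 100 UMIs in members (8.49% and 8.34%), and with 37 and 48 of 782 genes at a minimum of 500 UMIs (4.73% and 6.14%). Ret (chr6:118151745-118197718), the receptor subunit for ligands of the GDNF family, was at 174 CPM in control and 472 CPM in CFA members, a log2 ratio of 1.44 (1.19 to 1.68). In other neurons it was -0.19. Single members had Ret from 0 to 874 CPM with a median of 103 CPM (control) and 0 to 1286 CPM with a median of 93.9 CPM (CFA). The medians ran opposite to the sums and the groups overlapped. At or above 600 CPM, a level chosen after the values were seen, were 2 control members with 29.4% of the control Ret UMIs and 5 CFA members with 92.0% of the CFA Ret UMIs. Without the top member of each library the ratio was 1.35, with every member weighted equally 0.71, and with every cell thinned to 5000 UMIs 0.58. Asic1 (chr15:99670368-99701130) was at 80.7 and 177 CPM, a ratio of 1.13 (0.75 to 1.52), and -0.04 in other neurons. Its medians over single members were 46.4 and 122 CPM, and the groups overlapped. With Nefh at or above 1000 CPM required, the ratio of Asic1 was -0.13, and with Calca under 1000 CPM 0.32.

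Other genes with high ratios differed in how far they rested on single cells. Kcnip3, a potassium channel partner, had a ratio of 1.21 and 0.75 without its top members, Samd14 1.12 and 0.72 (-0.086 with Nefh at or above 1000 CPM required), and Zfhx3, a transcription factor, 1.05 in both. In other neurons the ratios of these 3 were 0.06, 0.06 and 0.45. Lpgat1, Senp6 and Pitpnm2 had 0.99, 0.94 and 0.91, and 0.97, 0.92 and 0.87 without them. Their ratios in other neurons were 0.47, 0.53 and 0.08. Lgi2 had 1.42 (0.55 in other neurons), 0.35 without its top members and -0.19 with every cell thinned to 5000 UMIs. Ly86, an immune surface protein, had the highest ratio of all, 3.67, but 1 CFA member held 97.7% of its CFA UMIs, and without the top members the ratio was -0.83. Of 14 genes of the node and axon measured, 3 lay at or above 0.5 and none at or below -0.5, beside 6.81% and 6.22% of all genes, and 4 lay below 0. Their median was 0.20 in members and 0.11 in other neurons, and 0.04 in members without the top member of each gene. The 3 were Lgi2, Ank3 at 0.71 (0.16 in other neurons) and Nfasc at 0.63 (0.10), and Nfasc had 0.48 without its top members. Of 4 mechanosensory genes measured, Asic1 and Piezo2, at 0.84 (0.49 in other neurons), lay above 0.5 and Asic3 (-0.65) below -0.5. Calca had 0.67, and 0.05 without its top members.

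Nuclear genes of oxidative phosphorylation (OXPHOS), the subunits of respiratory chain and ATP synthase, were lower in CFA members as a group. All 50 measured lay below 0, 9 of them at or below -0.5 (6.22% of all genes were), and 37 had an interval wholly below 0. Their median was -0.36, against -0.00 over all genes. In other neurons 29 of the 50 lay below 0 with a median of -0.03, in Trpm8 neurons 15 with 0.06 and in Tafa4 neurons 36 with -0.08. The difference between classes was not tested. Ndufb9, a subunit of complex I, was at 264 CPM in control and 151 CPM in CFA members, a ratio of -0.81 (-1.13 to -0.49). Atp5g3, of ATP synthase, was at 1742 and 1108 CPM, -0.65, and Cox5a, of cytochrome oxidase, at 889 and 612 CPM, -0.54. Cox17, a copper chaperone of cytochrome oxidase, stood among the 10 lowest genes at -1.18 (-0.27 in other neurons). The 52 genes of the list summed to 30751 CPM in control and 23947 CPM in CFA members, with medians over single members of 28743 and 22626 CPM. The ranges, 2122 to 54487 and 2750 to 37741 CPM, overlapped widely. Members were above other neurons in both libraries, which held 19145 and 18538 CPM, and below Trpm8 neurons, which held 35832 and 36867 CPM.

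The mitochondrially encoded subunits did not share this. Of 7 measured, 2 lay above 0.5 and none below -0.5 (6.81% and 6.22% of all genes did), with a median of 0.32 in members and 0.26 in other neurons. mt-Co1 had ratios of 0.90 and 0.99 in these classes. CFA members were shallower than control members. Within neurons of at least 10000 UMIs, 26 control and 18 CFA members, the OXPHOS median was -0.40, and with every cell thinned to 5000 UMIs it was -0.31.

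The interferon-response genes summed to a lower level in CFA members, and the highest levels came from few control cells. The 23 genes of the list summed to 1757 CPM in control and 458 CPM in CFA members, and to 1596 and 1129 CPM in other neurons. In all, 6 control members reached 2000 CPM, a level also chosen after the values were seen, and none of the CFA members exceeded 793 CPM. Of the 23 genes, 3 had enough UMIs for a ratio, and H2-D1, a class I heavy chain, had -0.17. One control member alone held 45.5% of the list's UMIs. Under 2000 CPM the control members summed to 646 CPM, and medians over single members were 653 and 360 CPM. B2m, the light chain of class I molecules, was at 364 and 149 CPM, a ratio of -1.28 (-0.49 in other neurons), and -0.99 without its top members. Iigp1, an interferon-induced GTPase, had 320 UMIs in control and 1 in CFA members, and 80.0% of the former came from 1 cell. It was at 43.2 and 7.10 CPM in other neurons, and at 10.4 and 19.6 CPM in Trpm8 neurons. Oasl2, an antiviral gene outside the list, had -1.49 (-0.21), with 31.6% of the control UMIs in 1 cell. The plot of list levels shows these cells.

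**Figure D4:**
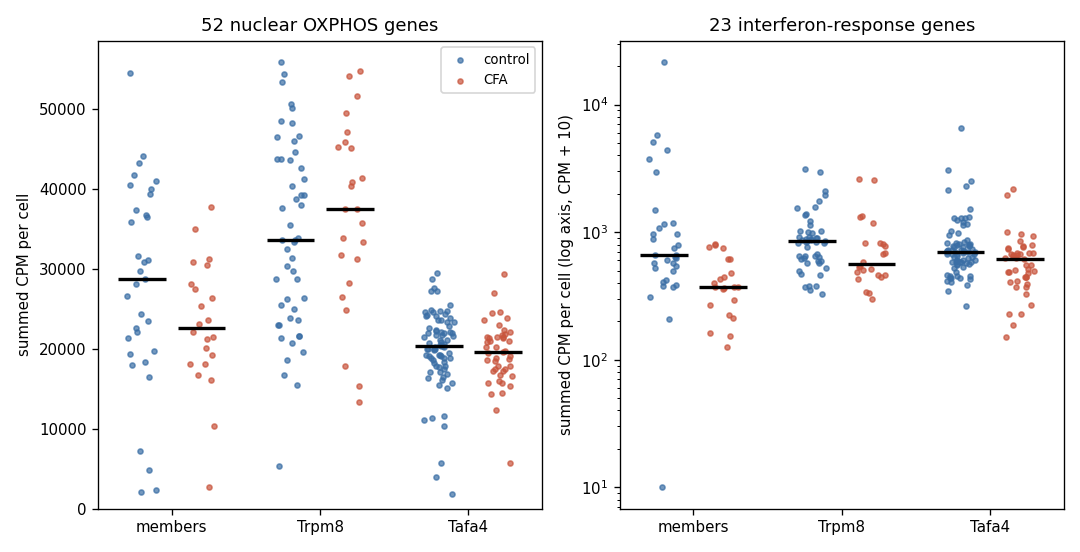
Summed CPM per cell of 52 nuclear OXPHOS genes (left, linear axis from 0) and 23 interferon-response genes (right, CPM + 10 on a log axis) in members, Trpm8 neurons and Tafa4 neurons, control blue and CFA red, with bars at the median. The CFA median of OXPHOS genes lies below the control median in members and above it in Trpm8 neurons, and the 6 highest interferon points of members are control cells.

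Heat-shock genes, which respond to cell stress and to dissociation, were lower in part. Of 11 measured, 3 lay at or below -0.5 (6.22% of all genes did) and none at or above 0.5, with a median of -0.33 in members and -0.06 in other neurons, where that of all genes in members was -0.00. These were Hspb1 (-0.64), Dnajb1 (-0.60) and Hspe1 (-0.56), while Hsp90aa1 had 0.05 and Dnaja1 0.23. Immediate early genes, induced by activity and also by dissociation, had a median of 0.10 over 7, and Atf3, which is also an injury gene, had -0.70 (0.05 in other neurons). Atf3 was found in 24 of 33 control and 17 of 22 CFA members. Other injury genes were mixed, with Gap43 at 0.30 and Stmn4 at -0.48. Resp18, Dexi, Malat1 and Serpinb1a completed the 10 lowest genes, at -1.13, -1.04, -1.03 and -1.003. In other neurons their ratios were 0.07, -0.16, -0.54 and 0.52. Without the top members they were -0.68, -1.34, -1.24 and -0.62 in members. The medians of Resp18 over single members ran the other way, at 0 (control) and 74.6 CPM (CFA). Malat1 had -0.42 in Trpm8 and -0.90 in Tafa4 neurons.

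**Figure D5:**
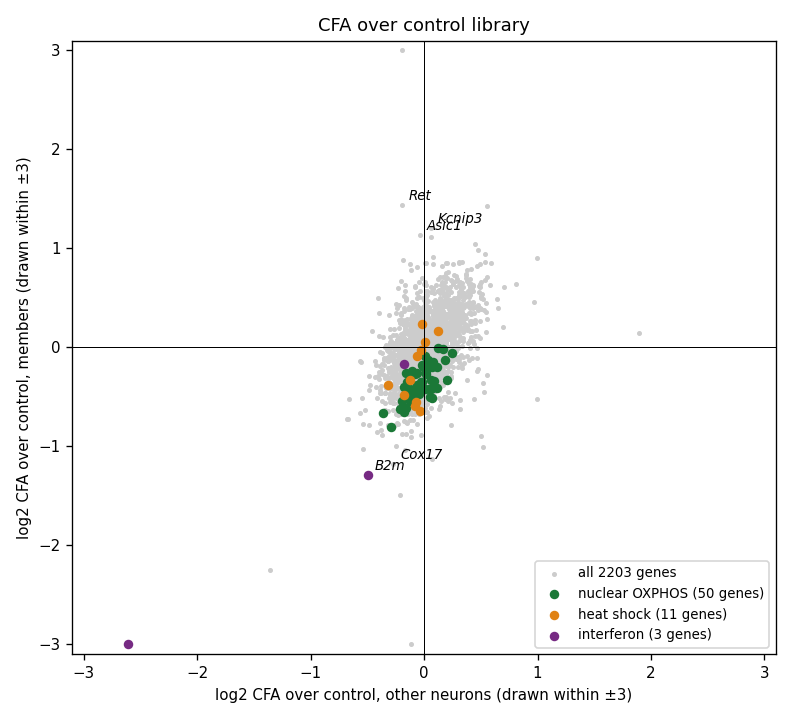
Log2 ratio of summed CPM, CFA over control, in members (vertical) and other neurons (horizontal) for 2203 genes, with values beyond 3 drawn at 3. The 50 OXPHOS genes (green) all lie below 0 in members and spread on both sides of 0 in other neurons; Ret and Asic1 lie above 1 in members and near 0 in other neurons.

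RNA of other cell types differed between the same cells, in both directions. Apod, a lipoprotein of Schwann cells and fibroblasts, was at 278 and 18.1 CPM, -3.94 (-0.11 in other neurons), with 90.5% of the control UMIs in 2 cells. Without the 2 top members of each library, an alternative chosen after seeing the data, it was at 27.6 and 7.28 CPM, a ratio of -1.92. The 6 markers of myelinating Schwann cells summed to 708 and 557 CPM, with Pmp22 the most abundant and Ncmap at 0 in CFA members. The 5 markers of satellite glia summed to 143 and 23.7 CPM, mostly Apoe, with Kcnj10 at 0 in both libraries, Ednrb at 0 in CFA members and 54.5% of the control UMIs in 1 cell. The 5 markers of fibroblasts summed to 117 and 15.3 CPM, mostly Dcn, and the 6 markers of immune cells to 20.4 and 6.98 CPM. The 4 endothelial markers summed to 30.9 and 19.5 CPM, mostly Pecam1. Higher in CFA members were the 4 oligodendrocyte markers, at 19.6 and 44.6 CPM, with Mobp the most abundant and Mog and Opalin at 0 in both libraries, and the 5 erythroid markers, also at 19.6 and 44.6 CPM, led by Hbb-bs. The 5 markers of non-myelinating Schwann cells, of which members themselves hold Ngfr, summed to 1971 and 1791 CPM. Their part in the differences between CFA and control members was not tested. Without neurons above 1% of UMIs in such markers, the OXPHOS median was -0.36 and the ratio of Ret 1.43.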

How the data were processed

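The authors deposited raw UMI counts, whole numbers for each gene and cell with no scaling, for the cells called by the BD Rhapsody pipeline, whose version is not given in the sources used here. The submitters' processing notes name fastp and the build GRCm38. The 2 files hold 39098 gene symbols, and positions of 449 of 449 named genes were matched in GENCODE M21. Kept cells held 48233077 UMIs in the control and 21658155 UMIs in the CFA library. UMIs were summed over the cells of a class in each library and scaled to CPM. Levels have exact Poisson intervals, ratios have conditional exact binomial intervals and shares Clopper-Pearson intervals, all at 95%. Where a class had 0 counts, a floor of 3 counts over the class bounded the ratio. With 1 library per condition no test was made. The ratio procedure was tested on simulated data drawn with counting error only. That test does not cover differences between cells or between libraries. Doublets were kept and no caller was run.

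Members, gene lists and thresholds were chosen with earlier results of these data known. The genes named are those of the lists and markers, the 25 with the highest and 15 with the lowest ratio of members over other neurons (ranked by the less extreme library, at least 20 UMIs in members of each library for the former), and the 10 highest and 10 lowest ratios of CFA over control members. A few genes that meet this rule are not reported here. Alternatives changed the filters on cells, the limits of the rule, the reference neurons, the depth, the weights of cells, the totals and the minimum of UMIs per gene. The scripts used matplotlib 3.10.9, pandas 2.3.3, scipy 1.17.1 and numpy 2.4.6 under Python 3.11.15.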

Additional observations from a re-analysis of the deposited data

Results flagged for a closer look

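Among the 10 highest and the 10 lowest ratios of CFA over control in members, 3 genes had opposite signs in members and in other neurons with both 95% counting intervals clear of 0, and this difference was not tested. Ret had a log2 ratio of 1.44 in members and -0.19 (-0.23 to -0.16) in other neurons. Ly86 had 3.67 in members and -0.20 (-0.24 to -0.15) in other neurons, with 97.7% of its CFA UMIs in 1 member. Serpinb1a, a protease inhibitor, had -1.003 in members and 0.52 (0.31 to 0.73) in other neurons, with 56.4% of its control UMIs in 1 member.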

How the results depend on the processing

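No paired analysis was possible because each condition has 1 library. Of the 400 values of leading genes over other neurons, 304 moved by less than 0.5 on the log2 scale, 92 moved further and 4 reversed. Of the 221 values of CFA over control members, the numbers were 180, 35 and 6. The settings differed widely. After thinning, 8 of the 40 ratios over other neurons stayed within 0.5, 28 moved further and 4 reversed. With every cell weighted equally, 16 of 40 stayed, and with Nefh at or above 1000 CPM required also 16. Totals without mitochondrially encoded genes left all 40 within 0.5. Of the 20 ratios of CFA over control, 10 stayed after thinning and 11 with equal weights. The count of genes at least 2-fold higher in members than in other neurons was 165 at a minimum of 1000 UMIs over all neurons, and that of genes lower was 317 there and 309 with every cell thinned to 5000 UMIs. Genes past a ratio of 0.5 in CFA members numbered 356 higher and 331 lower after thinning, 352 and 346 at a minimum of 100 UMIs over members, and 37 and 48 at a minimum of 500 UMIs. With Nefh at or above 1000 CPM required, the members were 1.89% of control and 3.18% of CFA neurons, and the ratios of CFA over control reversed for Ly86 (-0.81), Asic1 (-0.13) and Samd14 (-0.086). With Calca under 1000 CPM the ratio of Ly86 was -2.40, and without the top member of each library, an alternative chosen after seeing the data, -0.83. Thinning reversed Lgi2 (-0.19) for CFA over control, and Fgg (0.30), Gm38901 (0.33), Zdhhc12 (0.91) and Ccn3 (1.33), each with 1 or 2 UMIs in members of a library, for members over other neurons. The cause of these reversals was not tested, except that a single cell carried Ly86. The median ratio of the OXPHOS genes ranged from -0.54 to -0.27 over the alternatives. Depth limits genes with few UMIs in the 22 CFA members.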
